A study of Mus musculus with 27 samples.

Results

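Of the 27080 genes listed in any of the deposited count tables, 8 encode the enzymes and cofactors that write, maintain and remove DNA methylation in mouse cells, and their RNA levels are described here in mouse embryonic stem cells (mESCs) and embryoid bodies (EBs). The 8 genes, Dnmt1, Uhrf1, Dnmt3a, Dnmt3b, Dnmt3l, Tet1, Tet2 and Tet3, were found by their symbol, and each had 1 row in every table.

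In mammals the methyl group is placed on cytosine, mostly where it is followed by guanine (CG). Dnmt1, brought to newly copied DNA by Uhrf1, restores methylation after replication, whereas Dnmt3a and Dnmt3b methylate new sites, and Dnmt3l, which has no catalytic activity of its own, stimulates both. Tet1, Tet2 and Tet3 oxidise methylated cytosine, the first step towards its removal. In ESCs Tet1 and Tet2 are the Tet genes known to be active, and de novo methylation is known to rise as the embryo leaves the naive state.

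RNA-seq was performed on 12 libraries of J1, an mESC line grown without feeders in serum and LIF, a cytokine that holds these cells undifferentiated. J1 cells carried a control vector (shNT, 3 libraries) or 1 of 2 shRNAs against Gas41, shGas41-1 (3 libraries) and shGas41-2 (2 libraries), delivered by virus, and knockdown (KD) cells were harvested 8 days after infection. Control vector cells were also kept with LIF (EB day 0, 2 libraries) or grown as EBs without LIF up to day 6 (EB day 6, 2 libraries). Gas41, the product of Yeats4, is a chromatin reader of acetylated histone H3, so the KD comparisons ask how the genes respond to its loss and the EB comparison how they respond to differentiation. All 12 libraries thus came from 1 cell line with a vector, each shRNA against Gas41 is 1 sequence, and the study states in general that experiments had biological repeats. The labels do not say which libraries came from separate cultures, and p-values measure the spread between these libraries. The RNA counts hold no measure of DNA methylation.

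The libraries held between 59224537 and 81524773 counts. Yeats4 had 61.1, 53.4 and 51.3 normalised counts (CPM, scaled to library size) in the 3 shNT libraries, 3.46, 4.40 and 5.07 with shGas41-1 and 8.81 and 7.97 with shGas41-2, 12.6-fold and 6.54-fold lower. The summed level of 8 ESC markers was between 5514 and 7343 CPM in the shNT, KD and EB day 0 libraries and between 2266 and 2394 CPM at EB day 6, and 7 fibroblast or feeder markers together reached at most 13.6 CPM in any library, with 1 to 4 of them at 0. Of the ESC markers, Klf4 and Esrrb fell with shGas41-1 and the others were not called, Klf4 by 1.13 ± 0.19 on the log2 scale (FDR = 0.00554). With shGas41-2 Klf4 passed the FDR alone (-0.65 ± 0.16, FDR = 0.0412). shGas41-1 replicate 3 stood apart. In this library the median log2 level, set against the mean over all libraries, of genes with at least 8000 bases of exon minus that of genes with 1000 to 3000 was -0.62, against a range from -0.34 to 0.07 in the other libraries of the KD experiment and from 0.24 to 0.57 in the EB day 0 and day 6 libraries. Dnmt3a, Tet1, Tet3 and Tet2, with 16642, 14710, 11086 and 9203 bases of exon, belong to the long genes. Values without this library or with the length trend removed are therefore given beside results that they move or in the closing section.

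Levels were compared between genes only per kilobase of exon. In shNT cells Uhrf1 was the highest, at 69.9 ± 9.85 CPM per kilobase (SD, n = 3), which is percentile 92.3 among genes with at least 1 CPM. Dnmt1 at 29.3 ± 5.76, Tet1 at 24.3 ± 5.89 and Tet2 at 18.1 ± 1.70 followed, and the ranges of Dnmt1 and Tet1 overlapped. The 3 Dnmt3 genes lay lower, with Dnmt3l at 13.4 ± 1.86, Dnmt3b at 11.1 ± 0.617 and Dnmt3a at 7.28 ± 1.23 CPM per kilobase. Their order, and the shares given below, depend on division by all exon bases of a gene, used or not. These were 2988 for Dnmt3l, 5106 for Dnmt3b and 16642 for Dnmt3a. Tet3 was nearly silent, at 0.301 ± 0.151 CPM per kilobase and percentile 5.38.

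**Figure D1:**
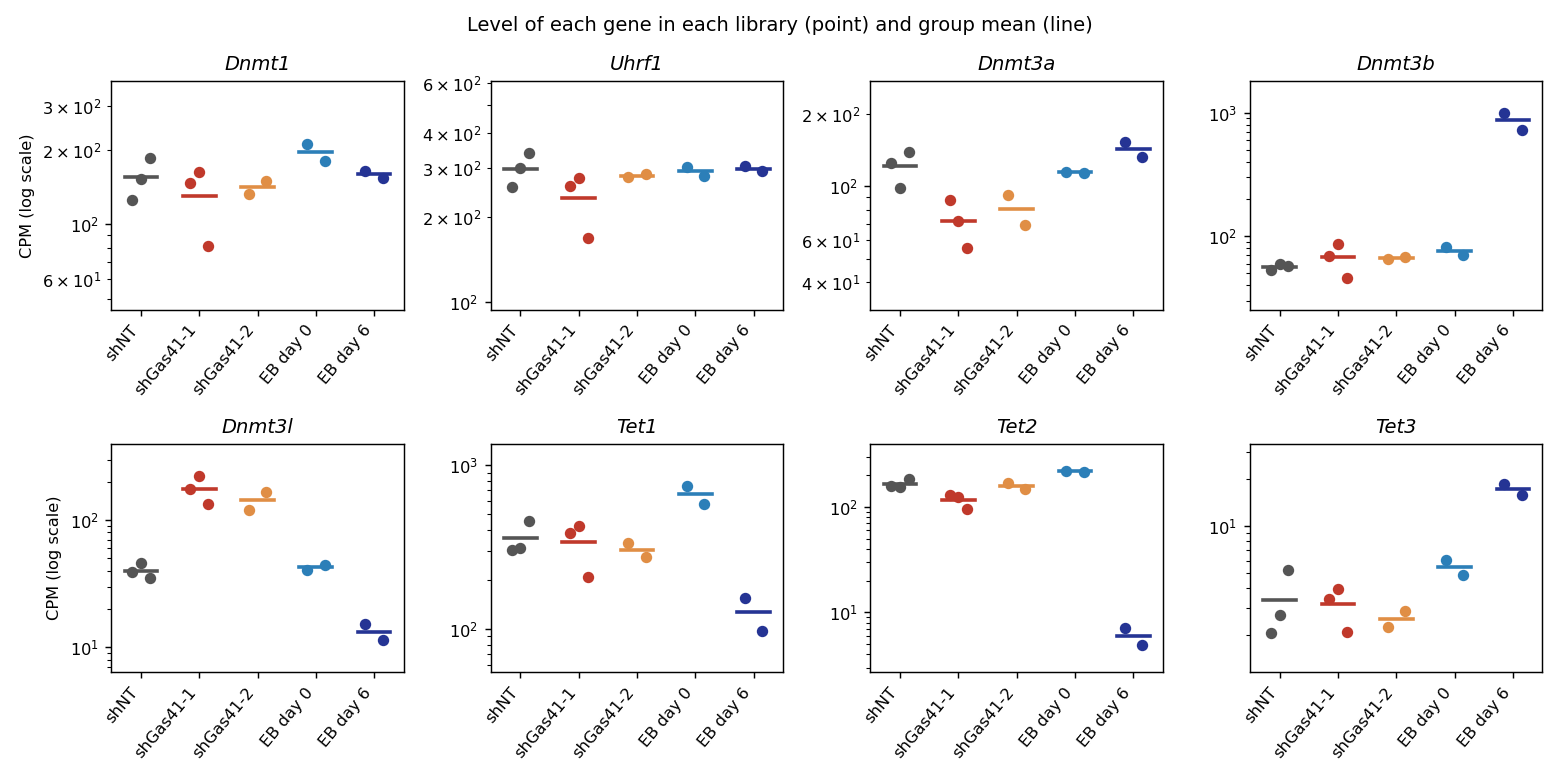
Level of each gene in CPM (vertical axis, log scale, with its own range in each panel) in the 5 groups of libraries; points are libraries and lines are group means. Dnmt3l is between 120 and 222 CPM in the 5 KD libraries and at most 45.9 CPM elsewhere, and Dnmt3b is at 731 and 1004 CPM at EB day 6 against at most 87.0 CPM elsewhere.

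Dnmt3l was the only gene of the 8 called upon Gas41 KD. A gene was called where edgeR's quasi-likelihood test gave a false discovery rate (FDR, Benjamini-Hochberg) of 0.05 or less and the change was 2-fold or more. By this rule 1 of 8 was called with shGas41-1, where 10.3% of the 18274 genes tested were called, and 1 of 8 with shGas41-2, where 4.82% of 18405 were called. Both KDs were set against the same 3 shNT libraries.

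Dnmt3l (mm9 chr10:77504692-77526367, plus strand) had 39.3, 45.9 and 34.9 CPM in shNT 1 to 3, 176, 222 and 134 CPM with shGas41-1 and 120 and 167 CPM with shGas41-2. Every KD library lay above every shNT library, as 41.7% of genes did in one direction or the other with shGas41-1 and 47.4% with shGas41-2. Dnmt3l rose 4.50-fold with shGas41-1 (log2 fold change 2.17 ± 0.20 (SE), FDR = 0.00187) and 3.60-fold with shGas41-2 (1.85 ± 0.16, FDR = 0.00145). The smallest log2 fold change with 1 library left out was 1.99 for shGas41-1 and 1.59 for shGas41-2. Dnmt3l shares 67 exon bases, 2.24% of its own, with Aire on the opposite strand, a transcriptional regulator best known from the thymus. Aire was at 1.06% to 3.89% of the Dnmt3l level in the 12 libraries, and reads of the pair cannot be told apart on those bases if strand was not used in counting. It rose by 1.40 with shGas41-1 (FDR = 0.00459) and by 1.74 with shGas41-2 (FDR = 0.0141) on the log2 scale.

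The catalytic de novo enzymes did not share this rise. Dnmt3a (mm9 chr12:3806007-3914443, plus strand) was at 125, 98.9 and 139 CPM in the shNT libraries, then 87.5, 72.1 and 55.3 CPM with shGas41-1 and at 91.8 and 69.4 CPM with shGas41-2. All of its KD libraries lay below all shNT libraries, where groups did not overlap for 41.7% of genes with shGas41-1 and 47.4% with shGas41-2. With shGas41-1 its log2 fold change of -0.73 ± 0.19 passed the FDR alone (FDR = 0.0300), which 18.5% of genes tested passed, but was under 2-fold. With shGas41-2 it was -0.58 ± 0.17 and missed the FDR (FDR = 0.0727), but it passed in DESeq2 (FDR = 0.0155), with no count filter (FDR = 0.0360) and without shNT replicate 1 (FDR = 0.0312). The shGas41-1 value was no longer past the FDR without shNT replicate 1 (FDR = 0.0619), without shNT replicate 3 (FDR = 0.106) or without shGas41-1 replicate 2 (FDR = 0.0554), and with the length trend removed it was -0.61 (FDR = 0.0273). Dnmt3b (mm9 chr2:153475186-153513466, plus strand) was at 53.3, 59.3 and 57.9 CPM in the shNT libraries, then 69.4, 87.0 and 45.8 CPM with shGas41-1 and at 65.6 and 67.7 CPM with shGas41-2. The lowest shGas41-1 library is replicate 3, which lay under all shNT libraries while the others lay above them, and the log2 fold changes were 0.27 ± 0.21 (FDR = 0.386) and 0.24 ± 0.10 (FDR = 0.148). Without that replicate the first was 0.47 (FDR = 0.0313), and with the length trend removed the second was 0.33 (FDR = 0.0422).

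Per kilobase of exon, the 3 Dnmt3 genes summed to 31.8 ± 0.980 CPM in shNT (SD, n = 3), to 76.8 ± 19.4 with shGas41-1 (n = 3) and to 65.8 ± 10.4 with shGas41-2 (n = 2). Dnmt3l made up 42.1% ± 4.73 of the sum in shNT and 75.3% ± 3.92 in the 5 KD libraries, a difference of 33.3 points. The groups did not overlap, with a highest share of 46.7% in shNT and a lowest of 68.6% upon KD (two-sided exact permutation test, p = 0.0357, the smallest p that 5 against 3 libraries can give). The share restates the rise of Dnmt3l called above in the same libraries, so this test is not independent evidence. It also pools the libraries of both shRNAs. Dnmt3a, at 23.0% of the sum in shNT, was at 5.71% with shGas41-1 and 7.57% with shGas41-2.

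**Figure D2:**
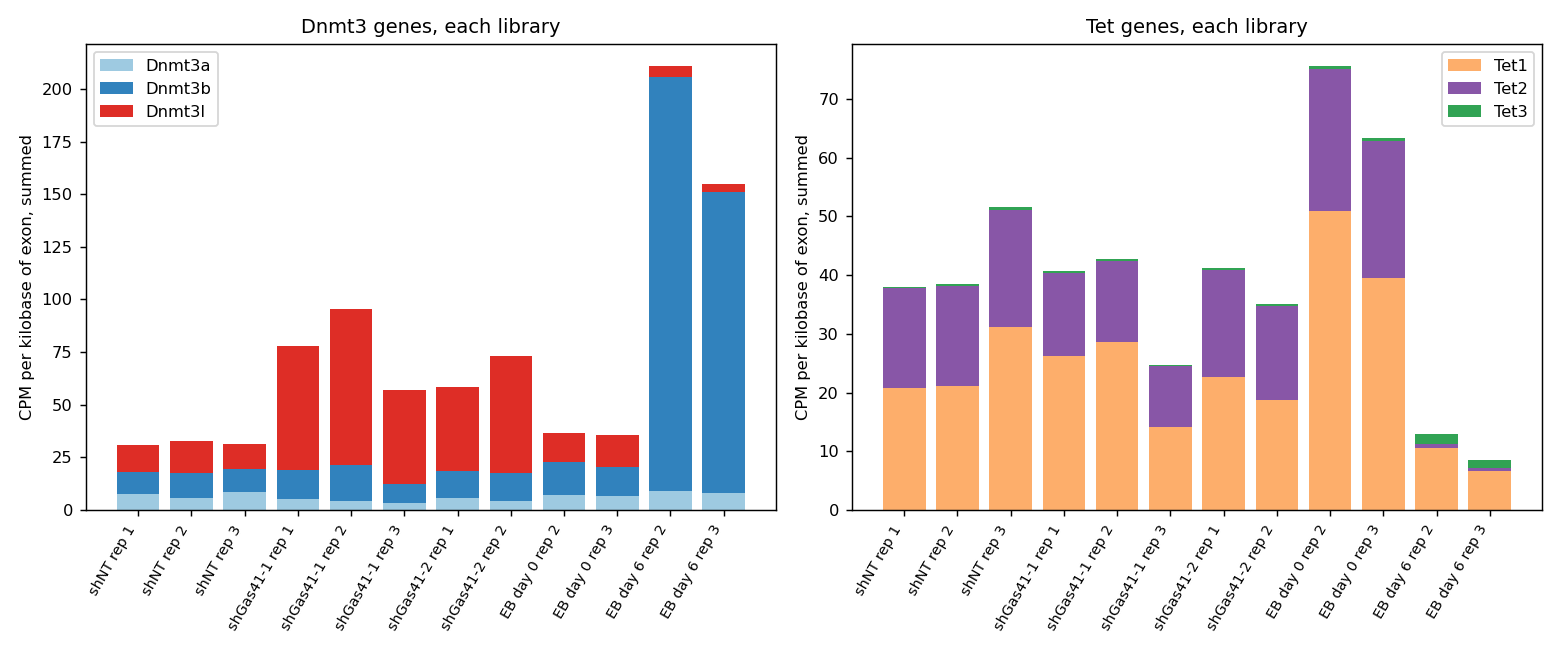
Summed level of the Dnmt3 genes (left) and the Tet genes (right) in each library, in CPM per kilobase of exon, with the part of each gene stacked from 0. The Dnmt3l part widens in the 5 KD libraries, from 42.1% to 75.3% of the Dnmt3 sum on average, and Dnmt3b makes up 92.8% of it at EB day 6, where the Tet sum is 10.8 against 69.4 at EB day 0.

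The maintenance genes were not called with either shRNA. Dnmt1 (mm9 chr9:20711650-20757317, minus strand) was at 125, 153 and 185 CPM in the shNT libraries, then 147, 162 and 81.2 CPM with shGas41-1 and at 133 and 149 CPM with shGas41-2. Its low value in shGas41-1 replicate 3 aside, the KD libraries lay within the range of shNT. Its log2 fold changes were -0.22 ± 0.25 (FDR = 0.553) and -0.12 ± 0.16 (FDR = 0.650), and without that replicate the first was 0.01. Uhrf1 (mm9 chr17:56442744-56462909, plus strand) had 255, 299 and 339 CPM in shNT, 257, 276 and 169 CPM with shGas41-1 and 277 and 285 CPM with shGas41-2. Again only shGas41-1 replicate 3 lay outside the shNT range, and the log2 fold changes were -0.32 ± 0.19 (FDR = 0.260) and -0.07 ± 0.12 (FDR = 0.735).

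Neither were the Tet genes. Tet1 (mm9 chr10:62267318-62361866, minus strand) was at 305, 311 and 458 CPM in the shNT libraries, then 386, 422 and 209 CPM with shGas41-1 and at 332 and 276 CPM with shGas41-2. The groups overlapped, with log2 fold changes of -0.05 ± 0.26 (95% interval -0.64 to 0.54) and -0.22 ± 0.18 (-0.65 to 0.20). Tet2 (mm9 chr3:133126643-133207354, minus strand) was at 157, 157 and 184 CPM in the shNT libraries, then 130, 126 and 95.03 CPM with shGas41-1 and at 169 and 148 CPM with shGas41-2. All shGas41-1 libraries lay below shNT, where groups did not overlap for 41.7% of genes. Of the shGas41-2 libraries replicate 1 lay within the shNT range and replicate 2 below it. The log2 fold change of -0.48 ± 0.15 with shGas41-1 lay at the threshold (FDR = 0.0516), and that with shGas41-2 was -0.06 ± 0.11 (FDR = 0.758). With the length trend removed the first was -0.33 and passed the FDR (FDR = 0.0475), as it also did without shGas41-1 replicate 3. Tet3 (mm9 chr6:83312367-83391672, minus strand) stayed between 2.07 and 5.24 CPM in all 8 libraries of the KD experiment. Tet1 made up 56.6% ± 3.21 of the Tet sum per kilobase in shNT and 59.5% ± 6.03 upon KD (two-sided exact permutation test, p = 0.536, n = 3 and 5). It was 63.0% with shGas41-1 and 54.2% with shGas41-2, and the difference between KD and shNT ranged from 0.987 to 4.76 points with 1 library left out. It was lowest without shGas41-1 replicate 2 and highest without shNT replicate 3.

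The shRNAs were also set against each other. None of the 8 genes was called by edgeR, where 0% of the 19146 genes tested were called. An unadjusted p under 0.05 was found for 1 of the 8 genes and 1348 genes in all, and DESeq2 called 71 genes and none of the 8. This gene was Tet2, higher with shGas41-2 than with shGas41-1 by 0.42 on the log2 scale (95% interval 0.08 to 0.76, adjusted p = 0.606, edgeR). For Dnmt3l the difference was -0.32 with an interval from -0.83 to 0.18, and for Dnmt3a 0.15 with an interval from -0.32 to 0.62.

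**Figure D3:**
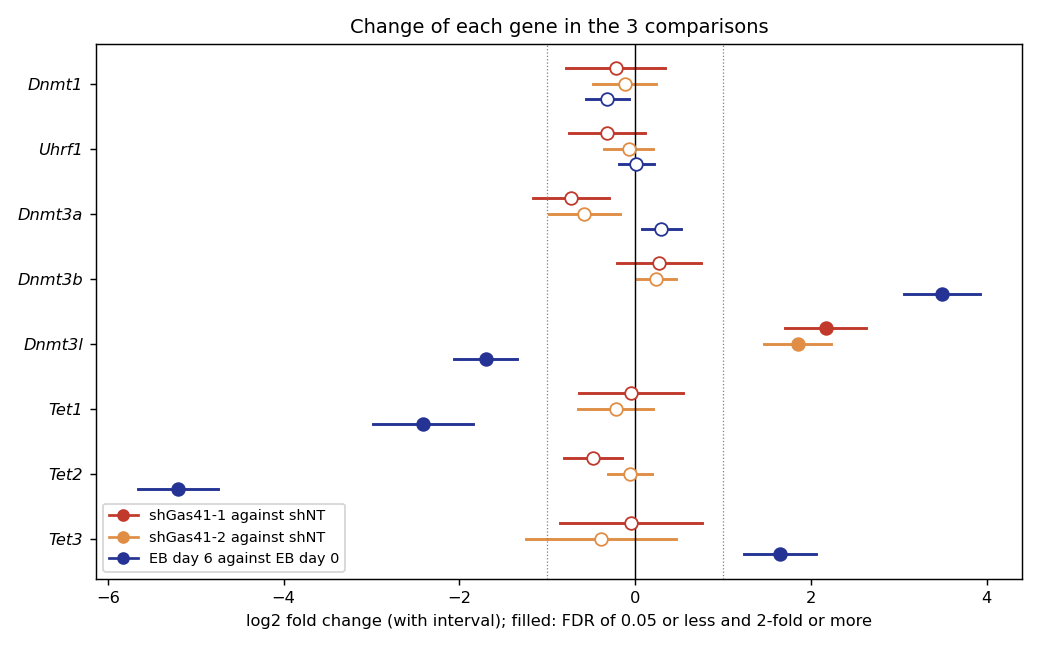
Log2 fold change (horizontal axis) of each gene with shGas41-1 and shGas41-2 against shNT and at EB day 6 against EB day 0; bars are 95% intervals, filled points passed an FDR of 0.05 and the 2-fold limit, and dotted lines mark 2-fold. Dnmt3l lies at 2.17, 1.85 and -1.70, and Tet2 at -0.48, -0.06 and -5.20.

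At EB day 6, 5 of the 8 genes were called, 2 upregulated (Dnmt3b and Tet3) and 3 downregulated (Tet2, Tet1 and Dnmt3l), where 31.3% of the 18287 genes tested were called. EBs are mixtures of cell types, and in bulk RNA fewer cells of a type and less RNA per cell cannot be told apart. With these changes the summed level of 11 epiblast and germ layer markers went from 37.0 and 38.4 CPM to 1678 and 2297 CPM, with 10 of 11 called up and none at 0, and 6 of 8 ESC markers were called down. The part of cell composition in the results below was not tested.

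Dnmt3b was at 82.3 and 69.9 CPM at EB day 0 and at 1004 and 731 CPM at EB day 6. The groups did not overlap, as for 82.5% of genes tested, and Dnmt3b rose 11.2-fold (log2 fold change 3.49 ± 0.18, FDR = 2.46e-05). Dnmt3l moved the other way, from 40.7 and 44.4 CPM to 15.1 and 11.4 CPM, a fall to 30.8% of day 0 (-1.70 ± 0.15, FDR = 0.000169). Dnmt3a, at 115 and 114 CPM and then 153 and 133 CPM, passed the FDR but not the 2-fold limit (0.30 ± 0.09, FDR = 0.0305). With the length trend removed it was 0.18 (FDR = 0.0970), and the FDR was 0.0963 with library size alone and 0.241 in 1 fit of all libraries. Its FDR was 0.138 without EB day 0 replicate 2, 0.188 without EB day 0 replicate 3 and 0.133 without EB day 6 replicate 2. The Dnmt3 sum went from 36.0 ± 0.863 to 183 ± 39.5 CPM per kilobase (SD, n = 2 each). Within it Dnmt3b went from 41.3% to 92.8%, Dnmt3l from 39.6% to 2.43% and Dnmt3a from 19.1% to 4.75%.

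Tet2 had the largest change of the 8, from 222 and 215 CPM to 7.17 and 4.86 CPM, 36.8-fold lower (-5.20 ± 0.19, FDR = 8.37e-06). Tet1 went from 749 and 581 CPM to 155 and 97.8 CPM, 5.33-fold lower (-2.41 ± 0.24, FDR = 0.000271). Tet3, which is known from the oocyte and from differentiated tissue, went from 6.02 and 4.86 CPM to 18.7 and 15.8 CPM, 3.13-fold higher (1.65 ± 0.17, FDR = 0.000338). For all 3 the day 0 and day 6 libraries lay apart, as for 82.5% of genes tested. With the length trend removed the log2 fold changes were -5.31, -2.53 and 1.54. The Tet sum went from 69.4 ± 8.70 to 10.8 ± 3.11 CPM per kilobase (SD, n = 2 each). In it the Tet2 share went from 34.4% to 6.07% and the Tet3 share from 0.706% to 14.8%, while Tet1 remained the largest, at 64.9% and 79.2%.

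Neither maintenance gene was called at EB day 6. Uhrf1 was at 302 and 280 CPM at day 0 and at 304 and 292 CPM at day 6, a log2 fold change of 0.01 with a 95% interval from -0.19 to 0.21. Dnmt1, at 210 and 180 CPM and then 163 and 154 CPM, fell by 0.32 ± 0.10 on the log2 scale and passed the FDR alone (FDR = 0.0334), as 58.9% of genes tested did. Its FDR was 0.206 without EB day 0 replicate 2, 0.0585 without EB day 0 replicate 3 and 0.0685 without EB day 6 replicate 3.

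The response to KD and the response to differentiation were compared in 1 fit over all 12 libraries, in which the mean of the KD responses minus the EB response was tested. Of the 8 genes, 5 were called, where 32.9% of the 19684 genes tested were called. The difference was 3.67 ± 0.30 on the log2 scale for Dnmt3l (FDR = 2.41e-06), which rose in one setting and fell in the other. It was 4.90 ± 0.25 for Tet2 (FDR = 9.03e-08), 2.24 ± 0.40 for Tet1 (FDR = 0.000699), -3.27 ± 0.30 for Dnmt3b (FDR = 4.88e-06) and -1.90 ± 0.46 for Tet3 (FDR = 0.00529). For Dnmt3a it was -0.99 ± 0.27 (FDR = 0.00932), past the FDR, as were 45.7% of genes, but under 2-fold, and for Dnmt1 and Uhrf1 it was 0.11 (FDR = 0.820) and -0.24 (FDR = 0.446).

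EB day 0 and shNT are both undifferentiated control vector cells, and none of the 8 genes was called between them by edgeR or DESeq2, where edgeR called 0.178% of the 19684 genes tested and 2 of the 8 and 3519 of all genes tested had an unadjusted p under 0.05. These were Tet1, 0.90 ± 0.28 higher at EB day 0 on the log2 scale (95% interval 0.28 to 1.52, FDR = 0.146), and Tet2, 0.40 ± 0.17 higher (FDR = 0.241). Both EB day 0 libraries lay above all shNT libraries for these genes, and 42.2% of genes did not overlap between the groups. With the length trend removed the differences were 0.44 (FDR = 0.254) and 0.11 (FDR = 0.730). Across all groups the order of Dnmt3l was shGas41-1, shGas41-2, EB day 0, shNT and EB day 6, and in it both KDs, and likewise EB day 0 and shNT, overlapped. For Tet1 it was EB day 0, shNT, shGas41-1, shGas41-2 and EB day 6, and from shNT to shGas41-2 neighbours overlapped.

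The promoters of these genes differ in CG content, the substrate of the enzymes they encode. RefSeq windows (GRCm38.p6, 250 bases before to 50 after a start) were found for 8 of 8 genes, 1 to 3 windows each, and CG, which reads the same on both strands, was counted in them. Of all 32851 windows 94.6% held at least 1 CG, and the median was 7. Dnmt3l, the gene that rose upon KD and fell in EBs, was the only one of the 8 with all of its windows below that median, at 6, 4 and 3 CG. These are not extreme, at more than or as many as 47.9%, 38.0% and 31.4% of all windows. Dnmt3b held 30, more than or as many as 89.4% of all windows, and Tet2 held 57, more than or as many as 99.9%. The most CG-rich window of Dnmt3l and the single windows of Dnmt3b and Tet2, the genes with the largest changes in each setting, are shown with CG in capitals. They lie at chr10:78042037-78042336 (plus strand), chr2:153649199-153649498 (plus strand) and chr3:133544341-133544640 (minus strand).
Dnmt3l: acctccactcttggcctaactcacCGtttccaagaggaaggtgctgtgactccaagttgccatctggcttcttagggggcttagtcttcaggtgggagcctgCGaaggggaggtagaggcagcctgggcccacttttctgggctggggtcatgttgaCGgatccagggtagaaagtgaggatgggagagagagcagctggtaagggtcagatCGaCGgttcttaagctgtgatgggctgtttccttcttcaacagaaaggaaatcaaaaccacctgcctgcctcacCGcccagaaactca
Dnmt3b: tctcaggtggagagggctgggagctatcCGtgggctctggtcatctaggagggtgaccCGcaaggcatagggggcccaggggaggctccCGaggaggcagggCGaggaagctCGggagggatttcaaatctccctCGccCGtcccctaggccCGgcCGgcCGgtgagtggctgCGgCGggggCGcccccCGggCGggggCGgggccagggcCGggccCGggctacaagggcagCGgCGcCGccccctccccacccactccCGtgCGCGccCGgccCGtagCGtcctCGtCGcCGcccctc
Tet2: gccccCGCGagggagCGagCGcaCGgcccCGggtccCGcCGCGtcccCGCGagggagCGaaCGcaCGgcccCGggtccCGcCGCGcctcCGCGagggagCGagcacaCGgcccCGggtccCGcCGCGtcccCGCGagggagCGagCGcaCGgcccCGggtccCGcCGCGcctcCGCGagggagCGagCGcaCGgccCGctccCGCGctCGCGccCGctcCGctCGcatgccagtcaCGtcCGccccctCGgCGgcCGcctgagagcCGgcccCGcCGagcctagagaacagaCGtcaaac
Of the remaining genes, Tet1 and Tet3 had 1 window each with 17 and 22 CG, Uhrf1 had windows with 12 and 33, Dnmt1 with 33, 12 and 2, and Dnmt3a with 46, 47 and 18. These counts describe the sequence only, since no methylation was measured.

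**Figure D4:**
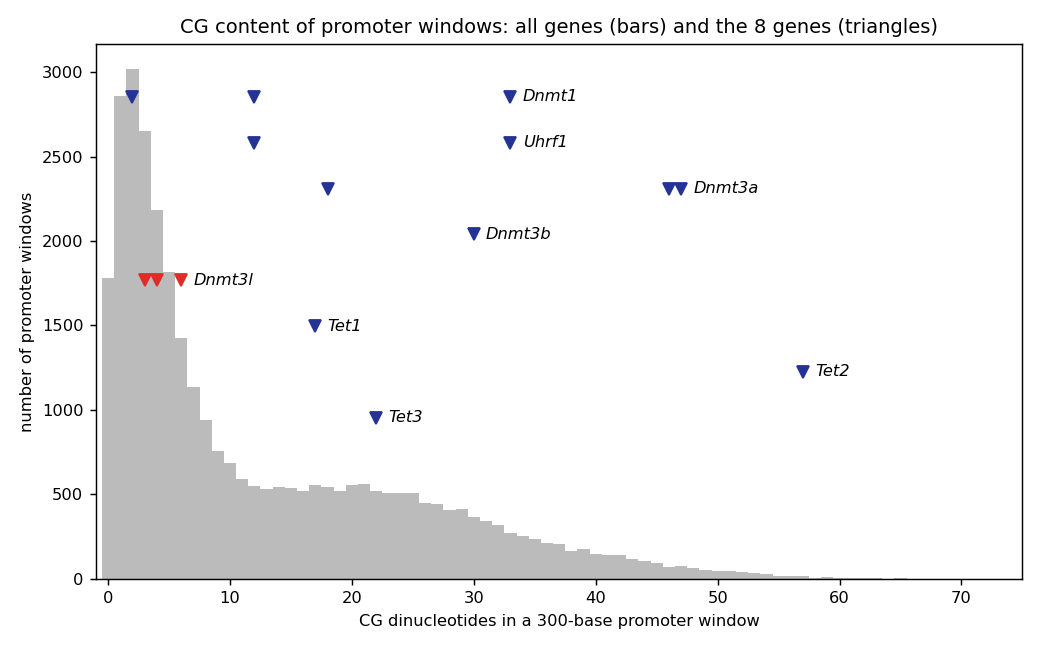
Number of CG dinucleotides (horizontal axis) in 32851 promoter windows of 300 bases (bars, number of windows) and in the windows of the 8 genes (triangles, at arbitrary heights, 1 line per gene). The 3 Dnmt3l windows, in red, lie at 3, 4 and 6, and the Tet2 window lies at 57.

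Genes of the same pathway were examined as lists. Among 16 binding and maintenance partners, which include readers of methylated DNA, 1 fell with each shRNA, where 2.4% of all genes were called down with shGas41-1 and 0.869% with shGas41-2. This was Zbtb4, a methyl-CG binding zinc finger protein, with log2 fold changes of -1.09 ± 0.30 (FDR = 0.0382) and -1.29 ± 0.31 (FDR = 0.0407), although its level was low, at 0.958 ± 0.230 CPM in shNT (SD, n = 3). In EBs it rose by 2.75 (FDR = 8.05e-05), and 4 of the 16 were called in all, 2 up and 2 down, where 31.3% of all genes were called. The largest fall was that of Zfp57, which guards methylation at imprinted loci, from 395 to 433 CPM down to 32.7 to 42.5 CPM (-3.48 ± 0.15, FDR = 1.21e-05).

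Of 15 genes for Tet partners and removal of oxidised bases, all were tested with shGas41-1 and 14 with shGas41-2. Neil1, a DNA glycosylase, was the 1 called with each shRNA, where 2.4% of all genes were called down with shGas41-1 and 0.869% with shGas41-2. It went from 4.47 to 4.84 CPM in shNT to 1.37 to 1.88 CPM with shGas41-1 (-1.47 ± 0.19, FDR = 0.00299) and to 2.23 to 2.32 CPM with shGas41-2 (-1.03 ± 0.16, FDR = 0.00888). In EBs 2 of 15 rose, where 16.6% of all genes were called up. Cxxc4, whose product binds CG-rich DNA and limits Tet2, rose by 4.80 ± 0.48 (FDR = 0.000302), and its relative Cxxc5 rose by 1.10 ± 0.09 (FDR = 0.000142). The level of Cxxc4 was low, with means of 0.0646 CPM at EB day 0 and 1.85 CPM at EB day 6. Of the genes for methyl donor supply, Bhmt rose by 1.58 with shGas41-1 (FDR = 0.0193) from 0.177 CPM, 1 of 13 tested, where 7.9% of all genes were called up. With shGas41-2 none of 13 tested was called, and Bhmt was at 0.65 ± 0.44 (FDR = 0.372). At EB day 6 3 of 14 rose, where 16.6% of all genes were called up. These were Mat1a by 4.20 ± 0.98, Gnmt by 2.01 ± 0.41 and Ahcy by 1.02 ± 0.10 (FDR between 0.000255 and 0.0103). Mat1a and Gnmt were low, with means of 0.0133 and 0.176 CPM at EB day 0 and 0.295 and 0.725 CPM at EB day 6. By the FDR alone, 4 of the 14 were higher and 5 lower, where 58.9% of all genes passed.

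Regulators of the 8 genes in ESCs were 12 in number. With shGas41-1, Dppa3, which is known to keep Uhrf1 away from chromatin, rose by 2.90 ± 0.37 (FDR = 0.00295), from 0.255 to 0.441 CPM in shNT to 1.49 to 3.20 CPM, and Esrrb, a naive pluripotency factor, fell by 1.04 ± 0.24 (FDR = 0.0204). Of the 12 these were 1 called up and 1 called down, where 7.9% of all genes were called up and 2.4% down. By the FDR alone 1 was higher and 4 lower, where 18.5% of all genes passed. With shGas41-2 none of the 12 was called. There the log2 fold change of Dppa3, 1.15 ± 0.35, missed the FDR (FDR = 0.0742), as did that of Esrrb, -0.44 ± 0.15 (FDR = 0.0996). In EBs 3 of 12 rose and 6 fell, where 16.6% of all genes were called up and 14.7% down. Among the largest falls were those of Tcl1 (log2 fold change -5.00 ± 0.38), Zfp42 (-4.87 ± 0.18), Esrrb (-4.31 ± 0.21) and Prdm14, known to repress de novo methyltransferase genes (-3.67 ± 0.13, FDR between 8.30e-06 and 9.43e-05). Upon KD Prdm14 was at -0.73 ± 0.20 with shGas41-1, past the FDR alone (FDR = 0.0343), and at -0.24 ± 0.10 with shGas41-2 (FDR = 0.1755). Genes of S phase, during which Dnmt1 and Uhrf1 act, had medians of -0.25, -0.04 and 0.02 in the 3 comparisons, and of 16 tested 2 passed the FDR alone with shGas41-1, both lower, where 18.5% of all genes passed it. In EBs 4 passed it as higher and 7 as lower, where 58.9% of all genes passed.

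Part of the germline genes known as targets of promoter methylation rose upon KD, and most of those tested fell in EBs. With shGas41-1, 6 of 14 tested rose and the others were not called, where 7.9% of all genes were called up, with a median log2 fold change of 0.89 against 0.02 over all genes. With shGas41-2, 4 of 14 rose, where 3.96% of all genes were called up, with a median of 0.82 against -0.01. At EB day 6, 8 of 13 fell, where 14.7% of all genes were called down, and 1, Sycp3, rose, with a median of -1.63 against -0.00. Since the list was written with earlier results of these data known, its direction is not independent evidence.

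Mael, a component of the piRNA pathway, was between 2.72 and 4.77 CPM in shNT and between 12.4 and 19.1 CPM with shGas41-1 (2.14 ± 0.26, FDR = 0.00267), and reached 10.2 and 12.5 CPM with shGas41-2 (1.66 ± 0.23, FDR = 0.00663). Dazl, an RNA-binding protein of germ cells, was between 4.02 and 6.71 CPM in shNT, between 11.0 and 17.9 CPM with shGas41-1 (1.47 ± 0.25, FDR = 0.00684) and at 16.5 and 19.9 CPM with shGas41-2 (1.85 ± 0.22, FDR = 0.00343). Both were higher in every KD library than in any shNT library. Groups lay apart, in one direction or the other, for 41.7% of genes with shGas41-1 and 47.4% with shGas41-2. Stk31 rose by 1.497 ± 0.22 (FDR = 0.00359) and 1.24 ± 0.19 (FDR = 0.00862). In EBs the largest falls were those of Rpl10l (log2 fold change -5.79 ± 0.12), Syce1 (-4.56 ± 0.29), Slc25a31 (-4.33 ± 0.52) and Stk31 (-4.30 ± 0.23, FDR between 2.18e-06 and 0.000639). The summed level of the 15 genes listed was between 148 and 194 CPM in shNT, between 217 and 249 CPM upon KD, 142 to 150 CPM at EB day 0 and 20.4 to 24.2 CPM at EB day 6. Rpl10l alone had means of 116.8 CPM in shNT, 81.64 CPM at EB day 0 and 1.489 CPM at EB day 6. Most of the fall of the sum in EBs was therefore that of this gene. Rpl10l was not called upon KD, with log2 fold changes of -0.0988 (FDR = 0.756) with shGas41-1 and 0.184 (FDR = 0.478) with shGas41-2.

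**Figure D5:**
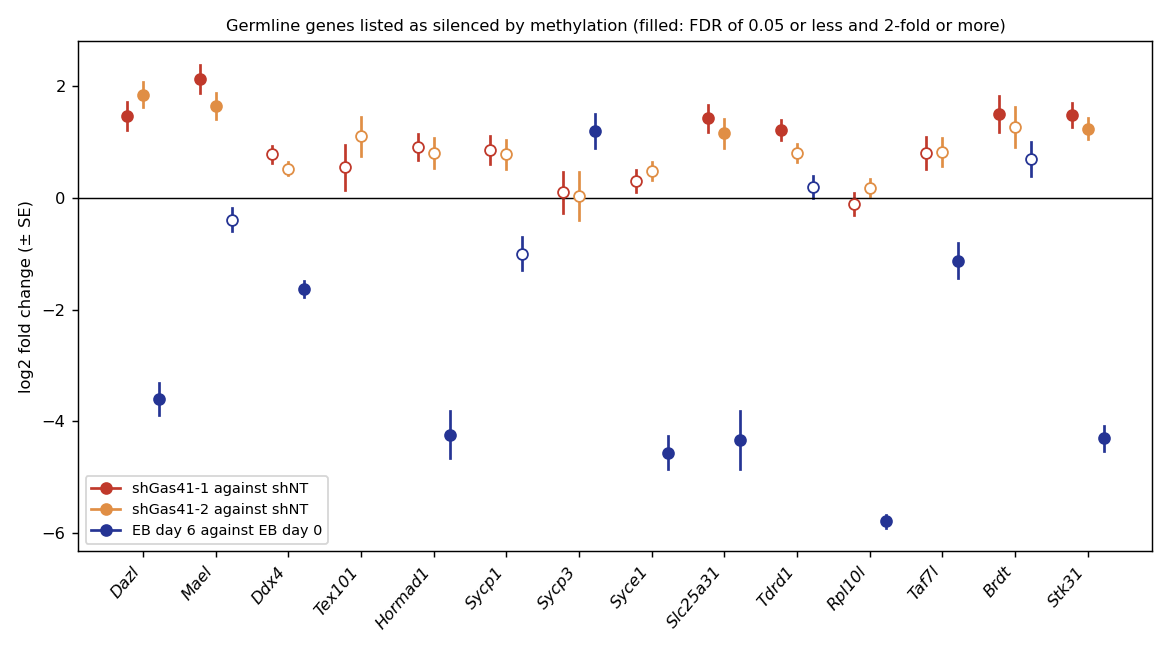
Log2 fold change (vertical axis, with SE) of each germline gene tested, with shGas41-1 and shGas41-2 against shNT and at EB day 6 against EB day 0; filled points passed an FDR of 0.05 and the 2-fold limit. With shGas41-1 6 of 14 genes and with shGas41-2 4 of 14 are filled above 0, and at EB day 6 8 of 13 are filled below it.

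With the KD results, markers of other cell types moved in part. With shGas41-2 none of 11 epiblast and germ layer markers was called. With shGas41-1 3 rose and 1 fell, where 7.9% of all genes were called up and 2.4% down. Pax6 rose from 2.16 ± 1.27 to 11.4 ± 1.64 CPM (SD, n = 3 each), Fgf5 and Gata6 rose from means of 0.114 and 0.196 CPM to 0.471 and 0.649 CPM, and Eomes fell from 8.85 to 4.34 CPM. The summed level of the 11 was 36.9 to 40.3 CPM with shGas41-1 and 30.8 to 31.4 CPM with shGas41-2, against 32.3 to 43.0 CPM in shNT, of which Otx2 alone had 22.7 CPM. Of the trophoblast markers, 2 of 4 tested were called up with shGas41-1, where 7.9% of all genes were. With shGas41-2 it was 1 of 5, where 3.96% of all genes were called up. Gata3 rose with both shRNAs, by 4.30 ± 0.43 (FDR = 0.00210) and 3.26 ± 0.37 (FDR = 0.00279). Its level was low, with means of 0.12 CPM in shNT, 2.32 CPM with shGas41-1 and 1.135 CPM with shGas41-2. Cdx2 rose with shGas41-1 by 2.50 ± 0.45 (FDR = 0.00776) and had a log2 fold change of 1.79 ± 0.52 with shGas41-2 (FDR = 0.0681). It was low too, with means of 0.217 CPM in shNT, 1.20 CPM with shGas41-1 and 0.738 CPM with shGas41-2. Tfap2c, which made up most of the summed level at 33.2 CPM in shNT, passed the FDR alone with shGas41-1 (-0.63 ± 0.17, FDR = 0.0373). The summed level of the 5 markers was 23.4 to 27.5 CPM upon KD against 29.2 to 42.7 CPM in shNT. No marker of these lists was at 0 in these libraries, and their part in the rise of Dnmt3l was not tested.

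The genes whose levels followed each of the 5 called genes most closely over the 12 libraries were taken from 11937 candidates by Pearson's r of log2 CPM. The libraries include both EB day 6 libraries, which lie apart from the rest for each of these 5 genes, and the values are a description only. Dnmt3l was followed by Insc (r = 0.995), which orients the mitotic spindle, Capn3 (0.988), a calpain protease, and Slc1a1 (0.986), a glutamate transporter. Dnmt3b was followed by Slco5a1, Cask and Adamts15 (r between 0.993 and 0.995), and Tet2 by Cobl, Mcam and Myst4 (0.995 to 0.998). For Tet1 the closest were Zfp462, Usp48 and Klf9 (0.969 to 0.989), and for Tet3 Hivep1, Notch3 and Vcan (0.984 to 0.991).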

How the data were processed

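RNA-seq of 12 libraries was analysed, and the ChIP-seq samples were not used here. Per the labels and methods, the authors mapped reads to mm9 (TopHat2 2.0.10 in the submitters' processing notes) and counted them per gene with HTSeq, and the counts they deposited were not normalized. The log2 fold changes, p-values and FDR that the authors deposited come from their own edgeR comparisons and were not used. Columns named ESC were read as EB day 0, and 0 columns were unmapped.

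The 3 tables were merged by Ensembl identifier, with an absent gene taken as 0. Members and lists were chosen with earlier results of these data known. The tests used edgeR 4.0.16 under R 4.3.3. Low genes were removed with filterByExpr (count of at least 10, total of at least 15), and libraries were scaled by TMM and compared with glmQLFit and glmQLFTest within the groups of each comparison. Benjamini-Hochberg adjustment ran over all genes tested. Scripts were tested on simulated data. CPM used TMM over 12 libraries, and exon lengths came from GENCODE on mm9. CPM per kilobase divides by all exon bases of a gene, used or not. Depth limits the precision of low genes: 3 counts correspond to 0.0373 to 0.0490 CPM. The alternatives were scaling by library size alone, median-of-ratios factors, no count filter, halved counts, DESeq2 1.42.0, FDR alone, shares of raw counts, 1 fit of all libraries, a block for the replicate number, omission of each library in turn, and, chosen after seeing the data, removal of the length trend.

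The text names the 8 genes and Yeats4, up to 4 called genes per list and comparison with the largest changes, and the 3 genes most like each called member, without Gm or Rik names. Aire, which overlaps Dnmt3l, and Sycp3, the single germline gene called up in EBs, were named after their values were seen, as were markers of other cell types. The result of 1 gene of a list is not reported here.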

Additional observations from a re-analysis of the deposited data

How the results depend on the processing

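Over 368 alternative fits of the 8 genes' fold changes, 341 kept direction and side of the FDR threshold. Of the others, 5 lost the threshold, 11 gained it and 11 changed sign. Of 54 counts and shares 1 was labelled as moved, a label that small changes of a count did not receive. Fits with 1 library left out are not in this tally, and some of them also lost the threshold or changed sign. Dnmt3a with shGas41-1 lost the threshold in 3 of 6 such fits. With the FDR alone, 2 of the 8 genes passed with shGas41-1, 1 up and 1 down. At EB day 6, 3 passed it as higher and 4 as lower, instead of the 2 and 3 called. For the difference of the KD and EB responses Dnmt3a passed it besides the 5 genes called. Dnmt3l upon KD and the 5 genes called at EB day 6 kept direction and threshold under all alternatives run, including each library left out. Tet2 with shGas41-1 passed the FDR in 5 of its alternatives and without shGas41-1 replicate 3 (FDR = 0.0428). Tet1 at EB day 0 against shNT passed it in DESeq2 (FDR = 0.0420). The cause was not tested. Over all genes, with 1 library left out, as few as 1222 instead of 1882 genes were called with shGas41-1, between 287 and 1467 instead of 888 with shGas41-2, as few as 3710 instead of 5726 at EB day 6 and between 1 and 6 instead of 35 for EB day 0 against shNT, where DESeq2 called 183, no count filter 82 and the block 17.

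Changes of sign concerned small values. With the length trend removed (chosen after seeing the data), Tet1 was at 0.0638 and Tet3 at 0.1056 with shGas41-1, and Uhrf1 at 0.013 and Tet2 at 0.0687 with shGas41-2. With library size alone Uhrf1 was at -0.0724 at EB day 6.

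Replicate numbers were not shown to pair the libraries. Deviations of same-numbered shNT and shGas41-1 libraries correlated at -0.0811, 0.215 and -0.573, shNT and shGas41-2 had 2 pairs (0.539 and 0.444), and EB day 0 and 6 gave 0.0777. When the replicate number entered as a block, the count of the 8 genes called changed only for the difference of the KD and EB responses, from 5 to 6, with Dnmt3a at -1.03. Over all genes 1321 instead of 1882 were called with shGas41-1, 1334 instead of 888 with shGas41-2 and 5631 instead of 5726 at EB day 6. Dnmt3a had an FDR of 0.0862 with shGas41-1 and of 2.03e-09 with shGas41-2, and Dnmt3b one of 0.000947 with shGas41-2. The block fit with shGas41-2 rests on 2 pairs, since shNT replicate 3 has no partner there. Its spread is therefore poorly measured, and no conclusion is drawn from its FDR values or its count of genes. Under the block Tet3 was at 0.022 with shGas41-1, Dnmt1, Uhrf1, Tet2 and Tet3 were at 0.0307, 0.0313, 0.0123 and 0.0962 with shGas41-2, and Dnmt3a was at 0.0281 for EB day 0 against shNT.

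With 1 library left out, log2 fold changes that crossed 0 ranged, with shGas41-1, from -0.40 to 0.0095 for Dnmt1, from -0.23 to 0.18 for Tet1 and from -0.30 to 0.41 for Tet3. With shGas41-2 they ranged from -0.24 to 0.0299 for Dnmt1, from -0.16 to 0.0308 for Uhrf1, from -0.17 to 0.0332 for Tet2 and from -0.63 to 0.0961 for Tet3. At EB day 6 Uhrf1 ranged from -0.045 to 0.0665. Between the shRNAs Dnmt1 ranged from -0.14 to 0.28, Dnmt3a from -0.0526 to 0.34, Dnmt3b from -0.24 to 0.18 and Tet1 from -0.42 to 0.0081. Between EB day 0 and shNT Dnmt3a ranged from -0.20 to 0.0371 and Uhrf1 from -0.12 to 0.0783, and for the difference of the responses Dnmt1 ranged from -0.0088 to 0.26. The Dnmt3l share difference ranged from 30.8 to 35.6 points, in designs whose smallest permutation p exceeds 0.05.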
